A study of Mus musculus with 12 samples.

Results

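The genes described here are 38 components of transforming growth factor beta (TGF-beta), bone morphogenetic protein (BMP) and activin signalling, taken by symbol from 17186 gene names measured in mouse liver or in liver sinusoidal endothelial cells (LSEC). All 38 were present in both tables. They comprise 14 ligand genes, 2 genes for an activin antagonist and a decoy receptor, 11 receptor and co-receptor genes, 7 Smad genes, the co-repressor gene Skil and 3 Id target genes. RNA-seq libraries came from 4 groups of C57BL/6 mice with 3 libraries each: whole liver from mice with nonalcoholic steatohepatitis (NASH), whole liver from chow-fed mice, LSEC from mice with NASH and LSEC from chow-fed mice. NASH was induced with the diet D09100301, and the labels attach a protocol of 36 weeks on that diet to every sample, chow samples included. LSEC were purified with magnetic beads, by removing CD11b-positive cells from the non-parenchymal fraction and then retaining CD146-positive cells. No genetic alteration is labelled, and the labels used here state neither age nor sex.

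Ligands of this family bind pairs of type I and type II serine/threonine kinase receptors, which phosphorylate receptor Smads that enter the nucleus with Smad4. TGF-betas and activins act mainly through Smad2 and Smad3, and BMPs mainly through Smad1 and Smad5. Inhibitory Smads, the decoy receptor Bambi, follistatin and the co-repressor SnoN dampen the signal, and the Id genes are widely used readouts of BMP input. In liver, TGF-beta1 drives matrix production by stellate cells, BMP9 from stellate cells acts on endothelium through ALK1 and endoglin, and endothelial BMP2 and BMP6 instruct hepatocytes to make the iron hormone hepcidin.

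Whole reads recovered from the deposited values summed to between 47000197 and 57397720 in the liver libraries and to between 18527017 and 19402863 in the LSEC libraries. The 10 endothelial markers summed to 278646 to 307676 normalized reads in NASH LSEC and 433273 to 448527 in chow LSEC, against 18498 to 20337 in NASH liver and 24382 to 28387 in chow liver. LSEC libraries also held reads of other cell types, and no marker of any list was at 0 in any library. Macrophage markers summed to 67967 to 85606 in NASH LSEC and 14628 to 40928 in chow LSEC, cholangiocyte markers to 10393 to 47485 in NASH LSEC and 4138 to 9402 in chow LSEC, and stellate cell markers to 23694 to 42225 in NASH LSEC and 13500 to 36481 in chow LSEC. Of these, 7 of 10 macrophage, 1 of 6 cholangiocyte and 2 of 8 stellate cell markers were called higher in NASH LSEC. These LSEC counts changed when single libraries were left out. No macrophage marker was called without any 1 of the 3 NASH LSEC libraries. With chow LSEC 2 or chow LSEC 3 left out 3 were called, and 9 without chow LSEC 1. Their median log2 fold change stayed positive, at 1.54, 1.38 and 1.59 without NASH LSEC 1, 2 and 3. Without chow LSEC 1, 2 and 3 it was 1.817, 1.605 and 1.099. Calls over all LSEC genes also fell in these fits, as given below. No stellate cell marker was called without any 1 NASH LSEC library or without chow LSEC 3, and no cholangiocyte marker without NASH LSEC 2, NASH LSEC 3 or chow LSEC 3. In whole liver, 6 of 6 cholangiocyte markers, 8 of 10 macrophage markers and 3 of 8 stellate cell markers were called higher in NASH. There, 6 of 8 hepatocyte markers and 5 of 10 endothelial markers were called lower. Against these directions, 1 of 8 stellate cell markers was called lower and 1 of 10 endothelial markers higher. The count of higher stellate cell markers in liver was 6 without NASH liver 1. Scaling to total reads gave 2 of 10 endothelial markers higher and 3 lower in liver, and 6 of 8 stellate cell markers higher. In such bulk samples, fewer cells of a type and less RNA per cell cannot be told apart, and the part of these shifts in the results below was not tested. Nothing in the labels ties the libraries of a group to separate animals, so a p-value here reflects only how far these libraries spread, which may be technical.

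A gene was called when its Benjamini-Hochberg adjusted p over all genes of its table was under 0.05 in limma. Of the 38 genes, 23 were called in NASH liver, 15 higher and 8 lower, or 60.5%. Among all 16703 liver genes 46.0% were called, 25.0% higher and 21.0% lower. The members' share called higher, 39.47%, stood above this high background, and their share called lower, 21.05%, was near it. The background includes low genes, whereas no liver member had fewer than 502 reads over the 6 libraries. Members were also chosen with earlier results of these data known, so the excess is a description and no test. In LSEC, 8 of 38 were called, 5 higher and 3 lower, or 21.1%, beside 8.11% of all 16273 genes (5.24% higher and 2.86% lower). The median log2 fold change of the members was 0.11 in liver and 0.03 in LSEC, beside 0.02 and 0.00 for all genes. Scaling liver libraries to total recovered reads moved the median of all liver genes up by 0.40 on the log2 scale and that of LSEC by 0.14. Under it, 22 liver members were called higher and 2 lower, beside 7878 and 904 of all liver genes, so the direction split in liver depends on the scaling. LSEC had 7 higher and 2 lower under it.

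LSEC calls fell when single libraries were left out, among the members and over all genes. The libraries are numbered here in the order of their columns. Among the members, 3 were called without NASH LSEC 1, 2 without NASH LSEC 2 and 1 without NASH LSEC 3. Without chow LSEC 1, 2 and 3, the members called were 7, 7 and 1. Over all LSEC genes, the calls went from 1319 to 474, 241 and 124 without NASH LSEC 1, 2 and 3. They went to 1171, 1055 and 255 without chow LSEC 1, 2 and 3. Of the 7 without chow LSEC 2, 5 were among the 8 called with all libraries, and Inhbc and Inhbe were the others. Bmp6 was called each time. The calls for Tgfb3 and Bmp2 ended without NASH LSEC 2, NASH LSEC 3 or chow LSEC 3, and that for Inhbb without NASH LSEC 1, NASH LSEC 3 or chow LSEC 3. The calls for Inhba and Tgfbr1 ended without any library but chow LSEC 1, that for Gdf3 without any but chow LSEC 1 and 2, and that for Eng without any of the 6. In liver, 19 of the 23 calls held without each library in turn, all but those for Bmp4, Bambi, Bmpr2 and Tgfbr3. Of the members, 13 share exon bases with another annotated gene: Bmp5 46.7% of its bases, Inhbc 14.4% and the others 7.84% or less.

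**Figure D1:**
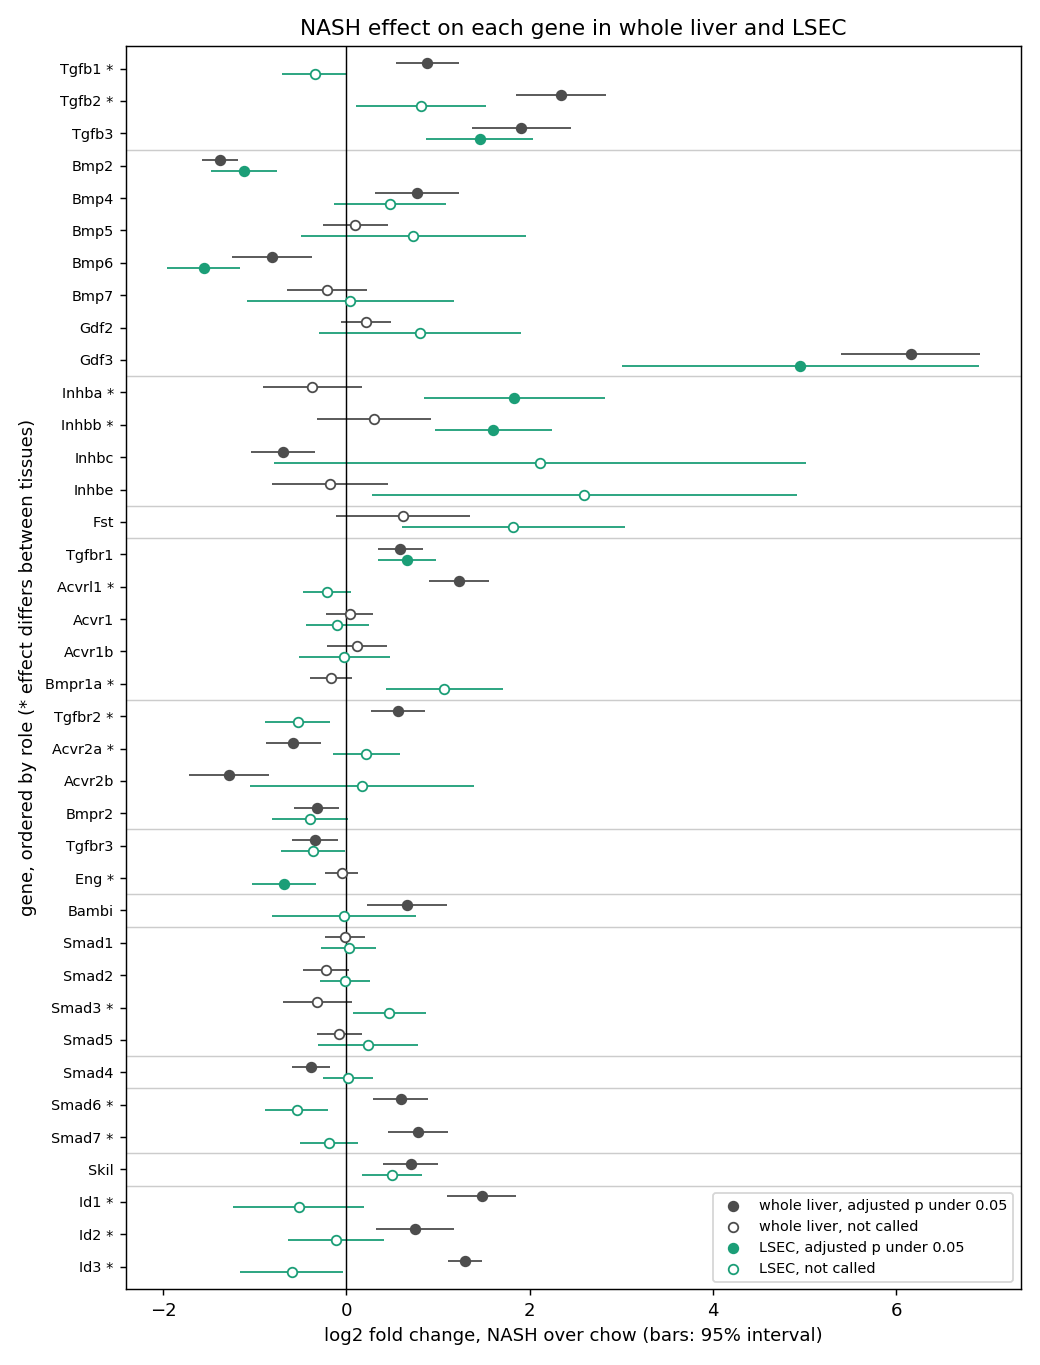
Log2 fold change of NASH over chow (x axis) with its 95% interval for each of the 38 genes (y axis, ordered by role), in whole liver (grey) and LSEC (green). Filled points have an adjusted p under 0.05, and a star marks a gene whose effect differed between liver and LSEC; Gdf3 lies farthest to the right in both, at 6.15 and 4.95, and Bmp2 and Bmp6 are the 2 genes with filled points left of 0 in both.

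All 3 TGF-beta ligand genes rose in NASH liver, and Tgfb3 also rose in LSEC. Tgfb1, the main fibrogenic isoform, lies on chromosome 7 at 25687002 to 25705077 (mm10). It had 1401, 1347 and 1926 normalized reads in NASH liver, against 740, 800 and 977 in chow liver. The groups did not overlap, and the gene rose by a log2 fold change of 0.88 (95% interval 0.54 to 1.23; limma, adjusted p = 0.00138). In LSEC it had 8743, 8212 and 7105 in NASH and 9930, 11822 and 8943 in chow, with a log2 fold change of -0.35 that was not called (limma, adjusted p = 0.196). All NASH LSEC libraries lay below all chow LSEC libraries.

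Tgfb2, an isoform made by several epithelial and mesenchymal cells, had 217, 158 and 235 normalized reads in NASH liver, against 41.5, 37.8 and 36.9 in chow liver. Its log2 fold change was 2.34 (limma, adjusted p = 4.52e-05). In LSEC it had 298, 700 and 453 in NASH and 287, 263 and 230 in chow, a log2 fold change of 0.81 (limma, adjusted p = 0.146; DESeq2, adjusted p = 0.0462). The library at 700, NASH LSEC 2, also had the highest sum of cholangiocyte markers, 47485 normalized reads against 10393 and 17522 in the other NASH LSEC libraries, and the part of those cells in this value was not tested. Tgfb3 had 310, 203 and 376 in NASH liver, against 81.9, 64.7 and 82.0 in chow liver, and 214, 348 and 268 in NASH LSEC, against 88.8, 120 and 89.1 in chow LSEC. It was separate between diets in both tissues, with log2 fold changes in liver and LSEC of 1.91 and 1.46 (limma, adjusted p = 0.000217 and 0.0205).

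Bmp2 and Bmp6, the BMP ligands that liver endothelium supplies to hepatocytes, fell in NASH in both tissues. Bmp2, on chromosome 2 at 133552159 to 133562885, had 876, 949 and 865 normalized reads in NASH liver, against 2438, 2247 and 2301 in chow liver. In LSEC it had 16734, 16765 and 19931 in NASH, against 34001, 39719 and 42448 in chow. In both tissues every NASH library lay well below every chow library, and the log2 fold changes in liver and LSEC were -1.38 and -1.12 (limma, adjusted p = 4.79e-06 and 0.0118).

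Bmp6, on chromosome 13 at 38345107 to 38500302, had 1800, 1779 and 2267 normalized reads in NASH LSEC, against 5801, 4711 and 6778 in chow LSEC. The groups stood far apart, with a log2 fold change of -1.56 (95% interval -1.96 to -1.16; limma, adjusted p = 0.00648). In liver it had 254, 258 and 259 in NASH, against 583, 478 and 330 in chow, with a log2 fold change of -0.81 (limma, adjusted p = 0.0074). The liver call ended when libraries were scaled to total reads, where the log2 fold change was -0.39 (limma, adjusted p = 0.113). The 10 endothelial markers had a median log2 fold change of -0.25 in liver and -0.58 in LSEC, and the lowest of them was at -1.03 in liver. Of the 10, 3 were called lower and 1 higher in LSEC, but none lower without chow LSEC 2, chow LSEC 3 or any 1 NASH LSEC library. Scaled to total reads, those medians were 0.17 and -0.45. Whether fewer endothelial cells contributed was not tested.

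Among the other BMP and GDF ligands, Gdf3, a ligand best known from the embryo and adipose tissue, was close to absent on chow. It had 332, 245 and 521 normalized reads in NASH liver, against 3.56, 5.40 and 3.08 in chow liver, where 11 reads were counted in all. LSEC showed 118, 97.0 and 169 in NASH, against 8.36, 0 and 6.14 in chow, from 408 and 14 reads. No other member had so wide a gap between diets, with log2 fold changes in liver and LSEC of 6.15 and 4.95 (limma, adjusted p = 2.54e-06 and 0.0196). Both are on the log2(value + 1) scale, and the authors' deposited values are 6.52 and 4.72. With a pseudocount of 0.1 the LSEC value was 6.16 and was not called (limma, adjusted p = 0.0643).

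Bmp4, a ligand of mesenchymal and endothelial cells, had 204, 161 and 177 normalized reads in NASH liver, against 92.5, 93.9 and 133 in chow liver. It rose with a log2 fold change of 0.77 (limma, adjusted p = 0.0125), a call that ended without NASH liver 1 (adjusted p = 0.0547) or chow liver 2 (0.0545). Bmp5, Bmp7 and Gdf2, the gene for BMP9, were called in neither tissue. Scaled to total reads, Gdf2 (0.63; limma, adjusted p = 0.00435) and Bmp5 (0.51; adjusted p = 0.0368) were called higher in liver, and Gdf2 was also called there without chow liver 3 (adjusted p = 0.0475). Gdf2 ran from 1405 to 1565 in NASH liver and from 1075 to 1486 in chow liver, and from 1033 to 2039 in NASH LSEC and 411 to 1410 in chow LSEC. Chow LSEC 2 was lowest for Gdf2 (411) and for Bmp5 (245), and it also had the lowest sum of stellate cell markers, 13500 normalized reads. Bmp5 shares 46.7% of its exon bases with the antisense gene Gm26903, and the liver kit does not mark strand, so reads of the pair cannot be told apart there.

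Of the 4 activin subunit genes, Inhba and Inhbb rose in LSEC and Inhbc fell in liver. Inhba and Inhbb encode the subunits of activins A and B, while Inhbc and Inhbe are expressed mainly by hepatocytes. Inhbb, on chromosome 1 at 119415465 to 119422248, had 2555, 4833 and 2290 normalized reads in NASH LSEC, against 1009, 1074 and 928 in chow LSEC. The diets did not overlap, and the log2 fold change was 1.60 (limma, adjusted p = 0.0201). In liver it ran from 228 to 367 in NASH and from 186 to 387 in chow, overlapping, with a log2 fold change of 0.30 (limma, adjusted p = 0.404).

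Inhba was scarce in both tissues, at 41.5, 42.9 and 66.0 normalized reads in NASH LSEC, against 21.9, 10.9 and 9.21 in chow LSEC. It rose there by a log2 fold change of 1.83 (limma, adjusted p = 0.0439), a call that edgeR's quasi-likelihood test did not make. In liver it ran from 61.5 to 94.1 in NASH and from 80.9 to 105 in chow, with a log2 fold change of -0.37 (limma, adjusted p = 0.231). Inhbc fell in liver, at 2665, 2580 and 2378 in NASH, against 3457, 3667 and 5467 in chow (log2 fold change -0.69; limma, adjusted p = 0.00528). That call ended under scaling to total reads (-0.28, adjusted p = 0.186), and hepatocyte markers had a median log2 fold change of -1.17 in liver, or -0.76 scaled to total reads. Inhbe overlapped between diets in liver, at 3261 to 7493 in NASH and 5100 to 8182 in chow. In LSEC both genes had under 100 normalized reads in every library, and chow LSEC 2, which had 45.7 for Inhbc against 1.04 and 1.02 in the other chow LSEC libraries, also had the highest sum of hepatocyte markers, 79300. The LSEC log2 fold changes were 2.11 for Inhbc and 2.59 for Inhbe, neither called (limma, adjusted p = 0.327 and 0.152). Without chow LSEC 2 both were called, at 3.62 and 3.70 (limma, adjusted p = 0.0303 and 0.0308).

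Fst encodes follistatin, which binds and neutralises activins, and Bambi encodes a decoy receptor without a kinase. Fst ran from 76.2 to 210 normalized reads in NASH liver and from 74.9 to 83.0 in chow liver, overlapping (log2 fold change 0.61; limma, adjusted p = 0.151). Fst was called higher there under scaling to total reads (1.03; limma, adjusted p = 0.0254) and without NASH liver 1 (0.95; adjusted p = 0.0399). In LSEC it was near the floor, with 59 reads over the NASH libraries and 13 over the chow libraries, and the log2 fold change of 1.82 was not called (limma, adjusted p = 0.0779). Bambi rose in liver, at 393, 333 and 523 in NASH, against 212, 275 and 294 in chow (log2 fold change 0.66; limma, adjusted p = 0.0192). The Bambi call ended without NASH liver 1 (adjusted p = 0.0557), NASH liver 3 (0.0805) or chow liver 1 (0.0709). In LSEC its diets overlapped, at 354 to 589 in NASH and 298 to 700 in chow.

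**Figure D2:**
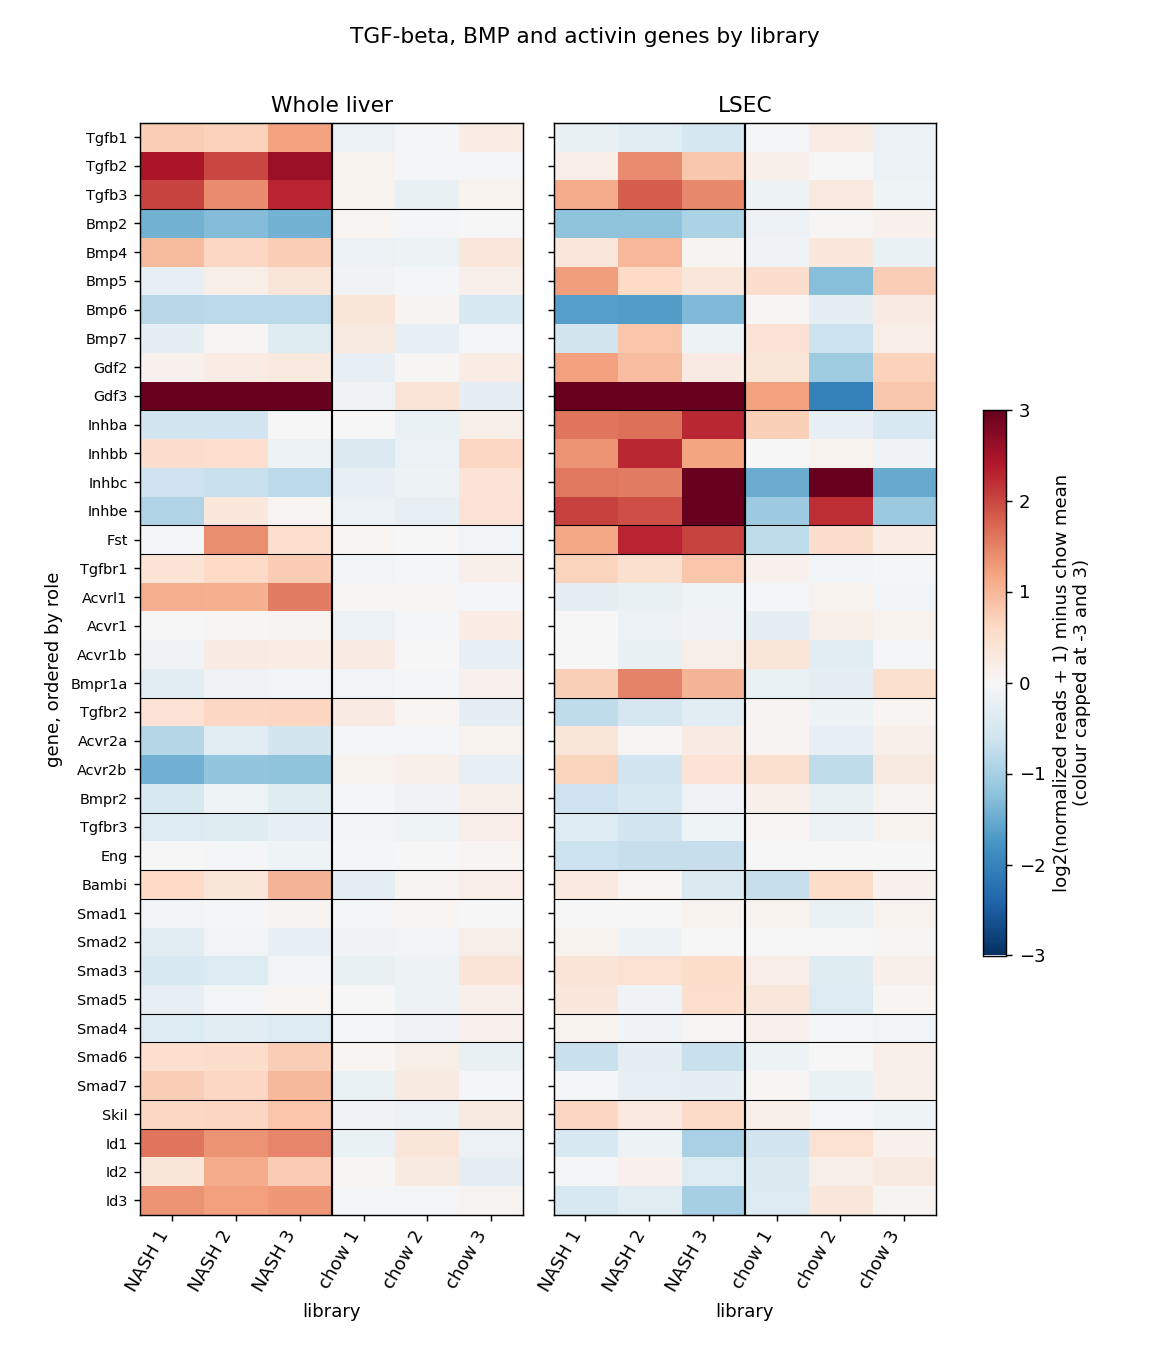
Each cell is 1 gene (rows, ordered by role) in 1 library (columns, NASH left of chow) as log2(normalized reads + 1) minus the chow mean of that tissue, with colour capped at -3 and 3. Bmp2 and Bmp6 are blue in all 6 NASH libraries, Id1, Id3, Smad6 and Smad7 are red in the 3 NASH liver libraries and in none of the NASH LSEC libraries, and chow LSEC 2 departs from the other chow LSEC libraries for Bmp5, Gdf2, Inhbc and Inhbe.

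Of the 11 receptor and co-receptor genes, 3 rose and 4 fell in NASH liver. The risers were Tgfbr1 and Tgfbr2, the type I and type II receptors for TGF-beta, and Acvrl1, which encodes ALK1, the endothelial type I receptor for BMP9. Acvrl1, on chromosome 15 at 101128522 to 101145336, had 610, 596 and 830 normalized reads in NASH liver, against 293, 292 and 273 in chow liver. Its groups stood well apart, with a log2 fold change of 1.23 (95% interval 0.90 to 1.56; limma, adjusted p = 0.000167). In LSEC it had 1348, 1387 and 1479 in NASH and 1595, 1759 and 1536 in chow, with a log2 fold change of -0.21 (limma, adjusted p = 0.27).

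Tgfbr1 was the receptor gene called in both tissues. It had 2730, 3085 and 3475 normalized reads in NASH liver, against 1923, 1979 and 2269 in chow liver, and 1732, 1520 and 1952 in NASH LSEC, against 1193, 1028 and 1057 in chow LSEC. The diets were separate in both, with log2 fold changes of 0.59 and 0.66 (limma, adjusted p = 0.00198 and 0.0327). Tgfbr2 had 4886, 5565 and 5712 in NASH liver, against 4289, 3790 and 2978 in chow liver (log2 fold change 0.56; limma, adjusted p = 0.00655). In LSEC it pointed the other way, at 6709, 8067 and 9185 in NASH and 12176, 10315 and 11926 in chow, with a log2 fold change of -0.53 that was not called (limma, adjusted p = 0.0787) but was called by DESeq2 (adjusted p = 0.0238).

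The 4 receptor genes that fell in liver were the activin type II receptors Acvr2a and Acvr2b, the BMP type II receptor Bmpr2 and the TGF-beta co-receptor Tgfbr3, also known as betaglycan; under scaling to total reads only Acvr2b remained called, Acvr2a had -0.16, and Bmpr2 (0.092) and Tgfbr3 (0.075) changed sign. Acvr2b had 68.8, 82.4 and 80.4 normalized reads in NASH liver, against 202, 209 and 158 in chow liver. Its highest NASH library, at 82.4, lay far below its lowest chow library, at 158, and the log2 fold change was -1.28 (limma, adjusted p = 0.000629). Acvr2a had 821, 1200 and 1014 in NASH liver, against 1459, 1432 and 1599 in chow liver, a log2 fold change of -0.58 (limma, adjusted p = 0.00636). Bmpr2 and Tgfbr3 had smaller log2 fold changes of -0.32 and -0.34 (limma, adjusted p = 0.0333 and 0.0318), and their calls ended without NASH liver 1, chow liver 1 or chow liver 3, for Bmpr2 also without NASH liver 3 or chow liver 2, and for Tgfbr3 also without NASH liver 2. None of these 4 genes was called in LSEC, where Acvr2b had only 45 reads over the NASH libraries and 36 over the chow libraries.

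Eng encodes endoglin, the endothelial co-receptor for TGF-beta and BMP9, and was the most abundant member per kilobase of exon in LSEC. It had 48963, 47963 and 47564 normalized reads in NASH LSEC, against 76954, 76818 and 77516 in chow LSEC. Libraries within a diet were almost alike and the diets were far apart, with a log2 fold change of -0.68 (95% interval -1.03 to -0.33; limma, adjusted p = 0.0399). limma moderates each gene's spread towards that of genes of similar level, and the call ended without any 1 of the 6 libraries, under scaling to total reads (-0.54, adjusted p = 0.0744) and with a pseudocount of 10. The authors' deposited table lists Eng at -0.68 with an adjusted p of 2.07e-10. In the same LSEC libraries the 10 endothelial markers had a median log2 fold change of -0.58, or -0.445 scaled to total reads. Whether fewer endothelial cells contributed to the Eng value was not tested. In liver, Eng overlapped between diets at 6148 to 6778 in NASH and 6539 to 7010 in chow (log2 fold change -0.05; limma, adjusted p = 0.626). Under scaling to total reads Eng was called higher in liver (0.36; limma, adjusted p = 0.0038).

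Acvr1, Acvr1b and Bmpr1a, type I receptors for BMPs and activins, were called in neither tissue. Scaled to total reads, Acvr1 (0.45; limma, adjusted p = 0.0201) and Acvr1b (0.53; adjusted p = 0.0157) were called higher in liver. Bmpr1a had the largest of these shifts in LSEC, at 477, 811 and 586 normalized reads in NASH and 255, 238 and 403 in chow, with a log2 fold change of 1.07 (limma, adjusted p = 0.0574). NASH LSEC 2 was the highest library, as it was for the cholangiocyte markers, whose part in this value was not tested. Bmpr1a was called under scaling to total reads (limma, adjusted p = 0.0408) and by DESeq2. The authors' deposited table gives Bmpr1a in LSEC an adjusted p of 0.00544.

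Smad1, Smad2, Smad3 and Smad5 were called in neither tissue, and their diets overlapped in liver, with log2 fold changes of -0.32 for Smad3 to -0.02 for Smad1. Smad1 was called higher in liver under scaling to total reads (0.40; limma, adjusted p = 0.017). In LSEC Smad3 had 1253, 1307 and 1396 in NASH, against 1087, 744 and 1064 in chow, with no overlap and a log2 fold change of 0.47 that was not called (limma, adjusted p = 0.134). Smad4, the shared partner of all receptor Smads, had 1558, 1659 and 1563 normalized reads in NASH liver, against 2033, 1933 and 2294 in chow liver (log2 fold change -0.39; limma, adjusted p = 0.00744). Under scaling to total reads the Smad4 value was 0.030, so its direction rests on the authors' size factors. In LSEC Smad4 overlapped between diets, at 1738 to 2005 in NASH and 1760 to 2025 in chow.

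The 3 genes for inhibitors inside the cell, Smad6, Smad7 and Skil, rose in NASH liver and were not called in LSEC by limma. DESeq2 called Smad6 lower (adjusted p = 0.023) and Skil higher (adjusted p = 0.0272) in LSEC, and Skil was also called there under scaling to total reads (limma, adjusted p = 0.0354). Smad6 and Smad7 encode the inhibitory Smads, the first acting mainly on BMP signals and the second on both branches, and Skil encodes SnoN, a nuclear co-repressor of Smad complexes. Smad6 had 637, 652 and 754 normalized reads in NASH liver, against 466, 506 and 387 in chow liver (log2 fold change 0.59; limma, adjusted p = 0.00555). In LSEC it had 2575, 3318 and 2553 in NASH and 3643, 4105 and 4506 in chow, with a log2 fold change of -0.54 that was not called (limma, adjusted p = 0.0688). The diets thus stood in opposite order in the 2 tissues, with no overlap in either.

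Smad7 had 773, 718 and 917 normalized reads in NASH liver, against 405, 559 and 442 in chow liver, and rose with a log2 fold change of 0.78 (limma, adjusted p = 0.00219). Its LSEC libraries overlapped, at 2684 to 3192 in NASH and 2860 to 3639 in chow. Skil had 1246, 1276 and 1456 in NASH liver, against 751, 725 and 989 in chow liver (log2 fold change 0.70; limma, adjusted p = 0.00211). Unlike Smad6, Skil had the same order of diets in LSEC, at 2241, 1777 and 2141 in NASH and 1625, 1413 and 1310 in chow, but its log2 fold change of 0.50 was not called (limma, adjusted p = 0.0738).

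The 3 Id genes, which encode inhibitors of basic helix-loop-helix transcription factors and are induced by BMP signals, all rose in NASH liver and none was called in LSEC. Id1, on chromosome 2 at 152736251 to 152737410, had 798, 672 and 729 normalized reads in NASH liver, against 230, 340 and 231 in chow liver. Id3, on chromosome 4 at 136143497 to 136145755, had 3075, 2858 and 3002 in NASH liver, against 1186, 1170 and 1281 in chow liver. The lowest NASH liver library, 672 for Id1 and 2858 for Id3, lay far above the highest chow liver library, 340 and 1281. The log2 fold changes were 1.47 for Id1 and 1.30 for Id3 (limma, adjusted p = 0.000121 and 5.35e-06).

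Id2 was more variable, at 4853, 8159 and 6415 normalized reads in NASH liver, against 3839, 4555 and 3072 in chow liver (log2 fold change 0.75; limma, adjusted p = 0.00984). In LSEC the diets overlapped for all 3 genes. Id1 had 1015, 1245 and 707 in NASH LSEC and 920, 1884 and 1521 in chow LSEC, a log2 fold change of -0.52 (limma, adjusted p = 0.327). Id3 had 4836, 5390 and 3404 in NASH LSEC and 5093, 8496 and 7100 in chow LSEC, a log2 fold change of -0.60 (limma, adjusted p = 0.17).

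**Figure D3:**
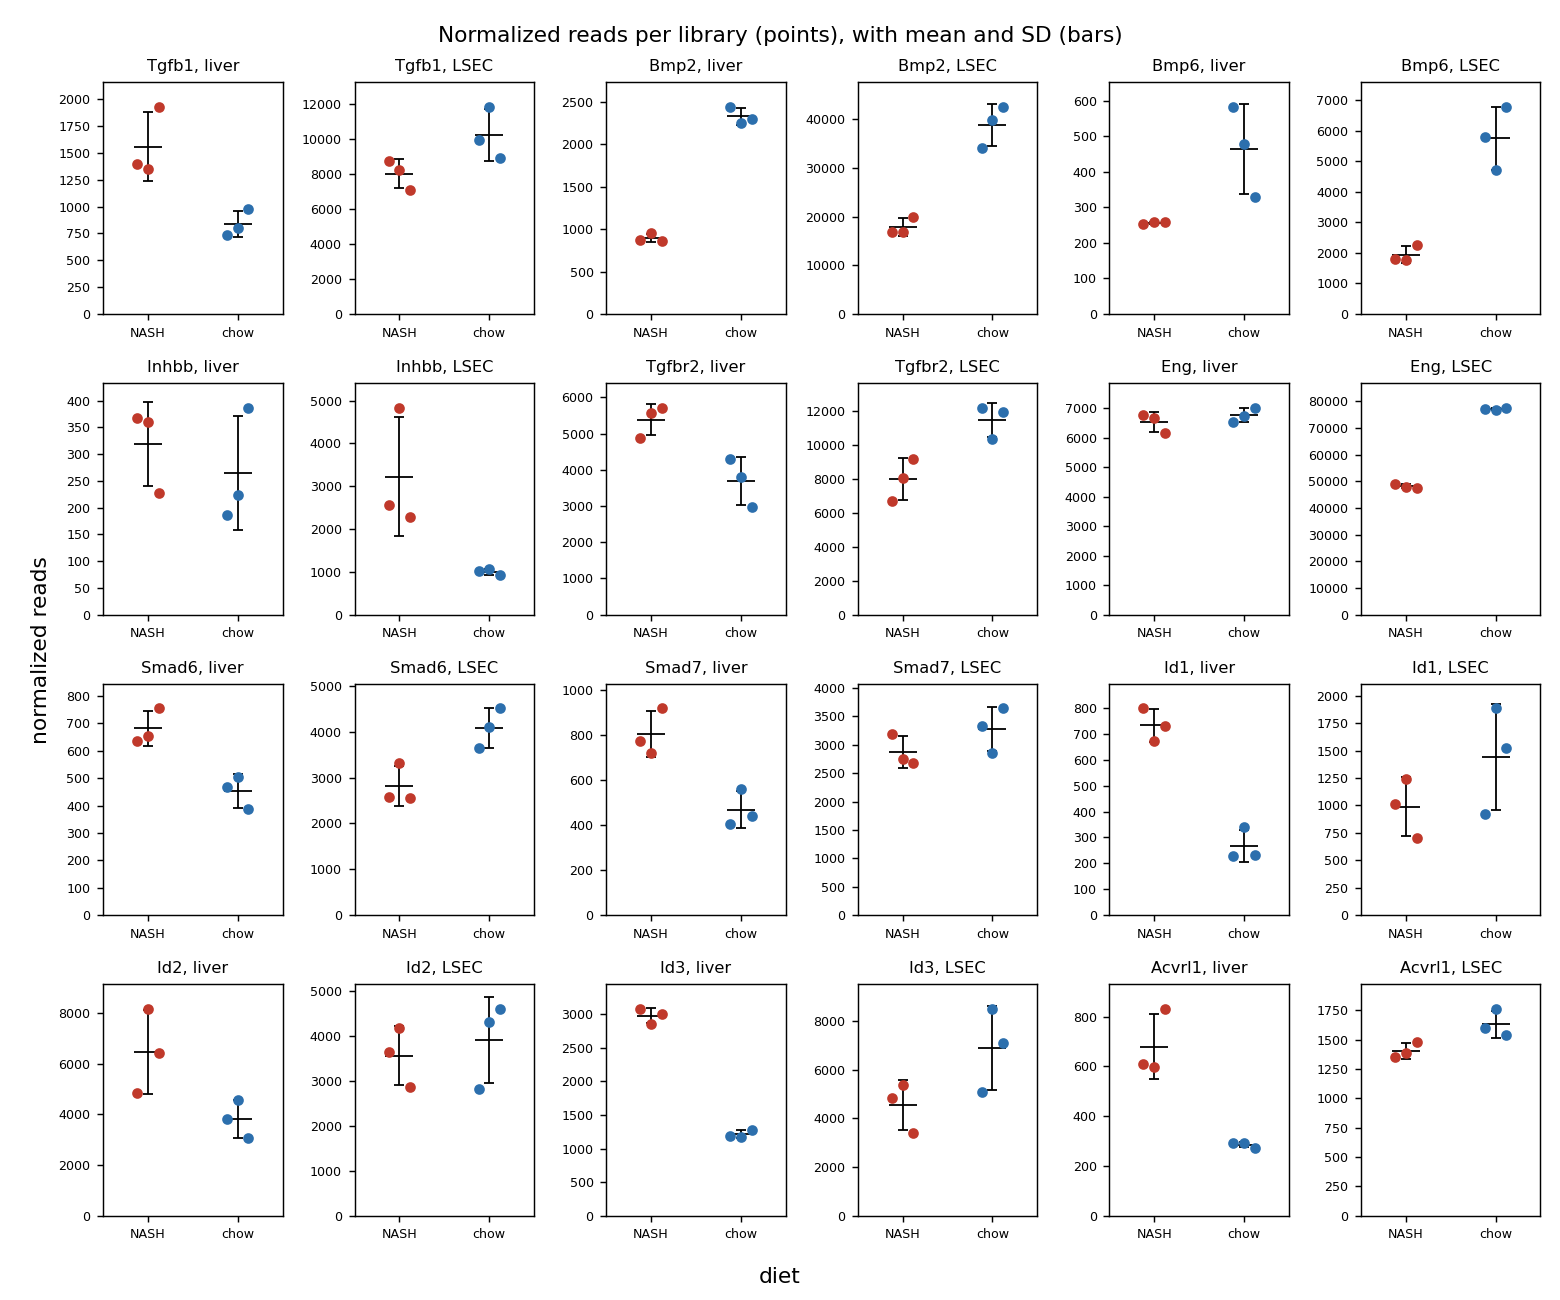
Normalized reads (y axis, from 0) in each library for 12 genes, with NASH in red left of chow in blue; points are libraries and bars give mean and SD (n = 3). The NASH points lie above the chow points for Tgfb1, Acvrl1, Tgfbr2, Smad6, Smad7, Id1, Id2 and Id3 in liver and for none of these in LSEC.

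Whether NASH moved a gene differently in the organ and in its endothelial fraction was tested per gene as the liver log2 fold change minus the LSEC one. The difference passed for 15 of 38 members, 10 with the higher value in liver and 5 with the higher value in LSEC, beside 19.5% of the 15766 genes in both tables (11.5% and 7.99%). Higher in liver were Id1 with a difference of 1.99, Id3 with 1.89, Tgfb2 with 1.53, Acvrl1 with 1.44, Tgfb1 with 1.23, Smad6 with 1.14, Tgfbr2 with 1.09, Smad7 with 0.97, Id2 with 0.86 and Eng with 0.63. Higher in LSEC were Inhba with -2.20, Inhbb with -1.30, Bmpr1a with -1.24, Acvr2a with -0.80 and Smad3 with -0.79. The adjusted p-values (limma estimates, Satterthwaite degrees of freedom) ran from 8.60e-05 for Acvrl1 to 0.0499 for Id2.

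Of these 15 differences, 9 kept their call without each of the 12 libraries in turn, namely Acvrl1, Id1, Id3, Inhba, Smad6, Smad7, Tgfb1, Tgfb2 and Tgfbr2. The call for Acvr2a ended without NASH LSEC 1 and that for Bmpr1a without NASH LSEC 2 or 3. The call for Inhbb ended without NASH liver 3, chow liver 3, NASH LSEC 2 or chow LSEC 3, and that for Eng without any LSEC library but chow LSEC 1. Smad3 lost its call without 7 of the 12 libraries (NASH liver 1 and 2, chow liver 3, NASH LSEC 1, 2 and 3 and chow LSEC 2). Id2 lost it without 9, all but NASH liver 1, chow liver 2 and chow LSEC 1. The calls for Inhbb, Acvr2a and Smad3 also ended when both tissues were scaled to total reads (adjusted p = 0.0662, 0.0883 and 0.169). The difference was -0.26 for Bmp2 (95% interval -0.64 to 0.13; adjusted p = 0.337) and 0.75 for Bmp6 (0.20 to 1.29; adjusted p = 0.0504). Scaled to total reads, the Bmp2 difference was 0.020 and the Bmp6 difference 1.02 (adjusted p = 0.00893). The Bmp6 difference also passed with a normal distribution (adjusted p = 0.0171), a pseudocount of 10 (0.0443), the filter at a mean of 10 normalized reads (0.0469), and without NASH LSEC 3 (0.0447), chow liver 1 (0.0201) or chow LSEC 2 (0.0221). In the edgeR interaction the differences for Inhbb, Smad3 and Id2 did not pass (adjusted p = 0.057, 0.0743 and 0.0681), nor did that for Bmp6 (adjusted p = 0.0675). Skil, called in liver alone, had a difference of 0.20 that did not pass (adjusted p = 0.496).

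Promoters from RefSeq (GRCm38.p6) were read for the members with a higher effect in liver that had an entry. Each window holds 250 bases before the RefSeq start, and the 5 windows that hold no annotated exon base are printed. Capitals mark CAGAC or its reverse complement GTCTG, the core of the Smad-binding element. Sequences run 5′ to 3′ on the gene's strand. The windows are Tgfb1 chr7:25686752-25687001 (+), Tgfb2 chr1:186705990-186706239 (-), Tgfbr2 chr9:116175364-116175613 (-), Eng chr2:32646345-32646594 (+) and Smad6 chr9:64022060-64022309 (-).
Tgfb1: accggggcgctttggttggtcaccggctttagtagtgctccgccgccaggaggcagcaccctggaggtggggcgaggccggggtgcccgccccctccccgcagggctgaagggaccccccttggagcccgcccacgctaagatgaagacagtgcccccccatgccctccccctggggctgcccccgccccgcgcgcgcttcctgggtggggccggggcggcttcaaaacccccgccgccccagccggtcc
Tgfb2: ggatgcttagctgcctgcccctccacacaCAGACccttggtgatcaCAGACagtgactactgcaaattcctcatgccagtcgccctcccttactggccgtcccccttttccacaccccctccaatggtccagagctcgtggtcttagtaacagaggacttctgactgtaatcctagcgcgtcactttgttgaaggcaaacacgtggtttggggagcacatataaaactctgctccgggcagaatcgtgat
Tgfbr2: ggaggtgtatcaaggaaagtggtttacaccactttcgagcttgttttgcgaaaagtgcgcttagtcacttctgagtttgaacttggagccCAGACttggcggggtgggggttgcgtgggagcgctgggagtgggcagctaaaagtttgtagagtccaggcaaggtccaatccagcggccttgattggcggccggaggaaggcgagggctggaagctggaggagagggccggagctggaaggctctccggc
Eng: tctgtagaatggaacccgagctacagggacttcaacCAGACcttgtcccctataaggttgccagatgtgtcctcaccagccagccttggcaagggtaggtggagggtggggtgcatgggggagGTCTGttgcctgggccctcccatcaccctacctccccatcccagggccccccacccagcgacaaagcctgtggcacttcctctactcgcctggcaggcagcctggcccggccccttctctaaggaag
Smad6: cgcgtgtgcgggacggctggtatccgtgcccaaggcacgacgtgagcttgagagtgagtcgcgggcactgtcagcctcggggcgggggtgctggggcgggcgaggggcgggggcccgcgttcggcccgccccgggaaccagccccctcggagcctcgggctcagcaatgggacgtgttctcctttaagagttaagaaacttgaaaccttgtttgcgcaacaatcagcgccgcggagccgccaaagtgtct

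In these windows, Tgfb2 and Eng held 2 matches each and Tgfbr2 held 1, while Tgfb1 and Smad6 held none. The GC-rich motif GGCGCC, which BMP-activated Smads can bind, was searched as well and was in none of the 5. The Id2 and Id3 windows were not printed because they hold annotated exon bases. Id2 held 1 GGCGCC and no CAGAC or GTCTG, and Id3 held 2 CAGAC or GTCTG and no GGCGCC. Over the 25 members with an entry, CAGAC or GTCTG occurred in at least 1 window of 12 members (48.0%) and GGCGCC in 5 (20.0%), some members having more than 1 window, beside 42.2% and 9.59% of all 32851 promoter windows of the same length. The motifs do not overlap each other, both strands were searched, and a match is a description of letters only. Id1, Acvrl1 and Smad7 had no promoter entry and are named only.

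Levels between genes were compared as normalized reads per kilobase of exon, within a tissue. In chow LSEC the members with the highest values were Eng at 19045, Bmp2 at 10892, Id3 at 3850, Tgfb1 at 2029 and Id2 at 1603. These genes also held places 1 to 5 in NASH LSEC, in the same order, with Eng at 11898 and Bmp2 at 5010, whereas Bmp6 was in place 15 in NASH, at 500 per kilobase, and in place 6 on chow, at 1478. In liver the order differed by diet: NASH liver was led by Id2 at 2656, Id3 at 1663 and Eng at 1612, and chow liver by Inhbc at 2258, Eng at 1671 and Id2 at 1568. Inhbb was in place 10 in NASH LSEC and in place 18 in chow LSEC, at 758 and 236 per kilobase.

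On chow, 31 of the 38 members took a larger share of a library's recovered reads in LSEC than in whole liver, and for 19 the ratio of the shares was at least 5. Bmp2 had the largest ratio, 50.2 in NASH and 50.9 on chow, alike on both diets. Bmp6 had 19.1 in NASH and 38.3 on chow, Tgfb1 12.9 and 37.2, and Smad6 10.4 and 27.7. For 24 members the ratio was lower in NASH than on chow. Scaled to total reads, all genes had a median log2 fold change of 0.426 in liver and 0.135 in LSEC, a shift that also lowers such ratios. The same counts were not made over all genes, so they cannot be read as particular to the members. Inhbe and Inhbc took a larger share in liver on both diets, and no ratio is given because most of their LSEC reads came from NASH LSEC 3 and chow LSEC 2. These ratios set libraries of differently prepared samples side by side and carry no test.

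**Figure D4:**
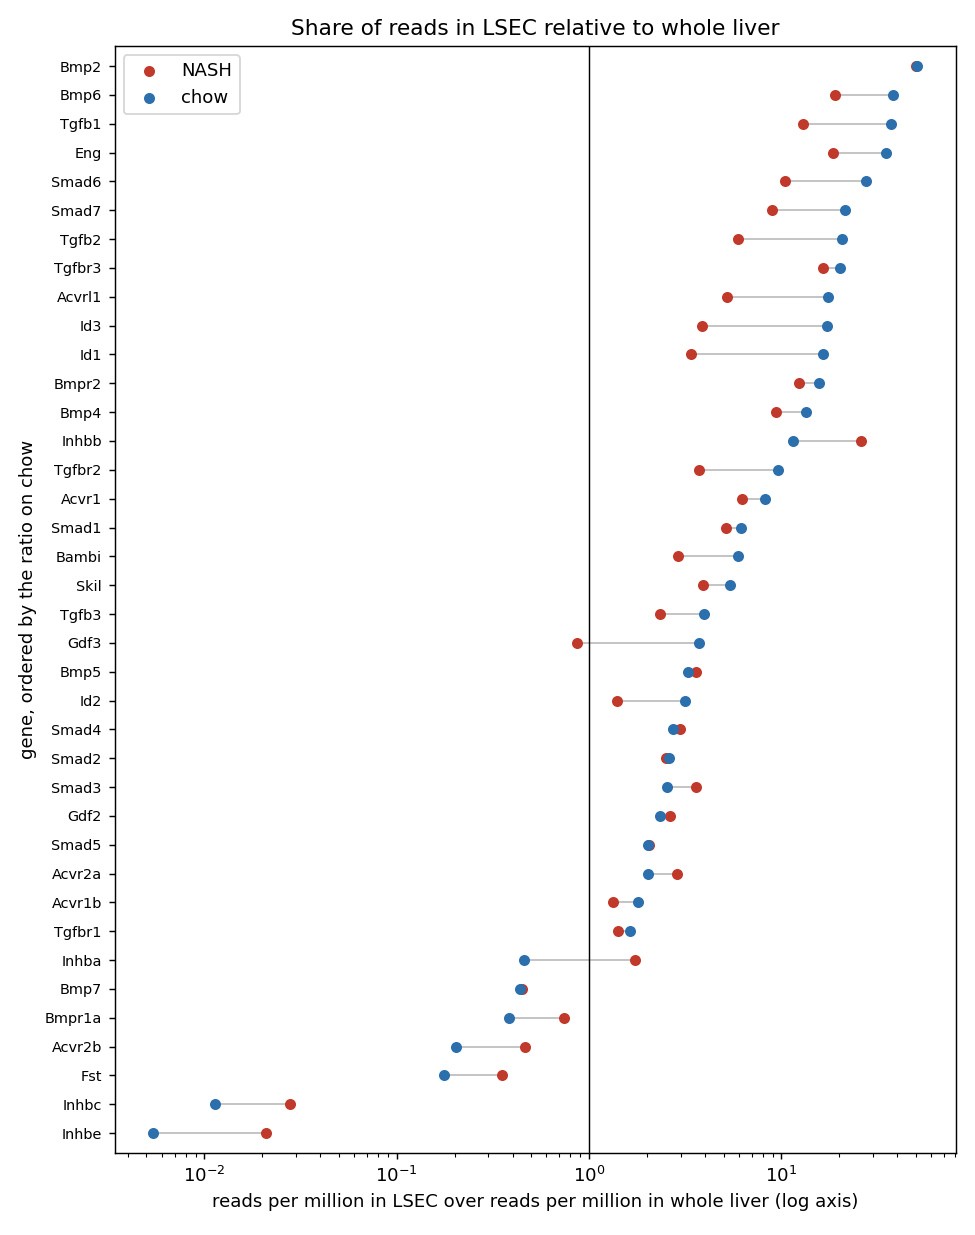
Ratio of the mean share of a library's reads in LSEC to that in whole liver (x axis, log scale) for each gene (y axis, ordered by the ratio on chow), in NASH (red) and on chow (blue). Bmp2 lies at the far right with ratios of 50.2 and 50.9, Inhbe at the far left with few LSEC reads, and Id1 and Id3 are among the genes whose NASH point lies farthest left of the chow point.

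Other genes of the pathway were read from the same fits, in which 46.0% of all liver genes and 8.11% of all LSEC genes were called. Of 13 genes for TGF-beta latency and activation, 12 rose in NASH liver and none fell, with a median log2 fold change of 1.36, beside 0.02 for all liver genes. In LSEC 6 rose and none fell, with a median of 1.10, and 2 to 7 rose without single libraries, the fewest without NASH LSEC 3. Thbs1, whose product thrombospondin 1 can activate latent TGF-beta, had 622, 623 and 593 normalized reads in NASH liver, against 114, 90.6 and 112 in chow liver. It had 1098, 863 and 973 in NASH LSEC, against 107, 183 and 89.1 in chow LSEC. The diets stood far apart in both tissues, with log2 fold changes of 2.53 and 3.01 (limma, adjusted p = 3.10e-06 and 0.00389). Fbn1 and Ltbp3, which tether latent complexes to matrix, had log2 fold changes of 2.46 and 2.10 in liver, where Fbn1 shares 20.1% of its exon bases with Gm9913. Ltbp2, a fibrillin-binding relative, and Itgav, the alpha V integrin chain, had log2 fold changes of 4.33 and 1.10 in LSEC.

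Of 9 TGF-beta target genes, 8 rose in NASH liver and 2 in LSEC, with median log2 fold changes of 1.48 and 0.91. The collagen genes Col1a1 and Col1a2 had log2 fold changes of 5.18 and 3.81 in liver and 4.08 and 3.14 in LSEC (limma, adjusted p = 1.23e-07, 2.09e-07, 0.00261 and 0.00389). Pmepa1, a TGF-beta-induced inhibitor of Smad signalling, had 2.32 in liver. Stellate cell markers stood beside these collagens in LSEC: Pdgfrb and Rgs5 rose by log2 fold changes of 1.72 and 1.85 there, and the other 6 of the 8 were not called. Both of these calls ended without any 1 NASH LSEC library or without chow LSEC 3, and that of Pdgfrb also without chow LSEC 1. The part of stellate cells in the collagen values was not tested.

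Among BMP target genes other than the members, 2 of 6 rose in liver, Hey1, a Notch and BMP target, at a log2 fold change of 2.72 and Id4 at 0.70. The median of the 6 was 0.58, but 0.14 without chow liver 3, where 1 of the 6 was called higher and 2 lower. The Id4 gene encodes a relative of the Id proteins above, and its call ended without any 1 liver library. Hamp2, a copy of the hepcidin gene, was the 1 of 7 that rose in LSEC, with a log2 fold change of 2.52 and means of 36.7 normalized reads in NASH and 5.27 in chow, and was named after its value was seen. Hamp, the hepcidin gene and a target of BMP6 in hepatocytes, was also named after its value was seen. It had 12251, 19028 and 12215 normalized reads in NASH liver, against 44534, 32064 and 2755 in chow liver. The diets overlapped, chow liver 3 lying below and the other chow libraries above every NASH library, and the log2 fold change of -0.16 was not called (limma, adjusted p = 0.895).

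Extracellular antagonists and modulators were called higher for 3 of 13 in liver and 3 of 14 in LSEC, and for none lower. Fstl1, a secreted follistatin relative, rose in both, with log2 fold changes in liver and LSEC of 2.50 and 1.33 (limma, adjusted p = 1.35e-06 and 0.00322). Crim1, a membrane protein with BMP-binding repeats, rose in liver with 0.31, and Bmper, an extracellular BMP regulator, rose in LSEC with 1.39. Fstl3, another activin-binding follistatin relative, rose in both, with 2.16 in liver and 2.08 in LSEC, but shares 47.3% of its exon bases with Prss57 and was named after its values were seen. The list's medians were 0.14 in liver and 0.59 in LSEC, and 1 or 2 members of it were called in LSEC without single libraries.

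Of 13 further ligand genes 4 rose and 1 fell in liver, with a median log2 fold change of 0.50. Without single libraries that median ran from -0.035 without chow liver 1 to 1.03 without chow liver 3, and the Bmp10 call ended without any 1 of the 3 chow liver libraries. Bmp8b had 4.21, Gdf6 1.71 and Gdf10 1.37. Inha, the inhibin alpha subunit gene, rose with 2.56, and Bmp10, a BMP9 relative, was the ligand that fell, with a log2 fold change of -2.81 (limma, adjusted p = 0.0238), or -2.42 scaled to total reads. Both were named after their values were seen. Bmp10 had 1.84, 53.3 and 25.7 normalized reads in NASH liver, against 131, 90.6 and 116 in chow liver. The authors' deposited table lists Bmp10 at -2.06 with an adjusted p of 0.0952. In LSEC, Lefty1, an antagonist of Nodal, was the 1 of 13 that was called and fell with -1.25. Co-receptor genes Rgma and Hfe2, the gene for hemojuvelin, were the 2 of 7 that rose in liver, at 1.70 and 0.35. Hfe2 was the 1 that rose in LSEC, at 3.24, and is named there as an exception to the naming rule given below. Hepatocyte markers had a median log2 fold change of 1.47 in LSEC, and none was called. Their sums ran from 6668 to 79300 normalized reads in chow LSEC and from 35082 to 71917 in NASH LSEC. The part of hepatocytes in the LSEC value of Hfe2 was not tested.

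Of 11 intracellular modulators, 2 were higher and 3 lower in liver, with a median log2 fold change of -0.19. Scaled to total reads, 6 were higher and none lower, with a median of 0.22. Leaving out single liver libraries gave 0 to 2 higher and 2 to 5 lower, with 5 lower without NASH liver 2. The co-repressor genes Tgif1 and Tgif2 rose with 1.00 and 0.92, Tgif2 being named after its value was seen and sharing 56.7% of its exon bases with another gene. The lower calls were those of Ppm1a, a Smad phosphatase, at -0.36, the Smad anchor Zfyve9 at -0.49 and the BMP receptor Smad gene Smad9 at -0.63, also named after its value was seen. None of these lower calls held under scaling to total reads, where the values were 0.056 for Ppm1a, -0.073 for Zfyve9 and -0.22 for Smad9. In LSEC, Tgif1 and the ubiquitin ligase gene Nedd4l rose, at 1.30 and 0.74. When single libraries were left out, the liver calls for Crim1, Hfe2, Id4, Bmp10, Smad9, Tgif1 and Tgif2 ended in at least 1 case (limma, adjusted p up to 0.179). So did the LSEC calls for Itgav, Bmper, Fstl3, Lefty1, Hfe2, Hamp2, Tgif1 and Nedd4l (limma, adjusted p up to 0.149). The calls for Id4 in liver and Fstl3 in LSEC ended without any 1 library of their tissue. In LSEC, those for Hamp2 and Hfe2 ended without any library but chow LSEC 2, and those for Lefty1 and Nedd4l without any but chow LSEC 1. Each of the 12 libraries ended at least 1 of these calls in its tissue.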

How the data were processed

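RNA was sequenced from whole liver and LSEC on both diets, with 3 libraries in each of 4 groups. FastQC, STAR, HTSeq, DESeq2 and the mouse build mm10 are named in the submitters' processing notes, without versions. The deposited values are a normalized signal, and their steps show read counts per gene divided by 1 factor per library. The authors' deposited tables also give a log2 fold change, p-value and adjusted p-value per gene, per the file headers. The tissues stand in separate tables and were scaled separately. LSEC columns carry a group but no sample title, so their numbers are names only. The liver library kit does not mark strand.

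Within a tolerance of 0.01, 100% of the values were whole multiples of what 1 read is worth, and the reads so recovered gave the depths stated above. That depth covers counting error only. Replicates of a group differed beyond sampling noise, with a chi-square per degree of freedom of 16.41 to 96.24. Each table was fitted whole in R 4.3.3 with limma 3.58.1, using a variance trend on log2(normalized reads + 1) and no filter on low values, with NASH and chow as groups. Calls are Benjamini-Hochberg adjusted p under 0.05 over all genes, two-sided. The tissue difference is the liver log2 fold change minus the LSEC one, over its standard error, with Satterthwaite degrees of freedom and adjustment over 15766 genes. The steps were tested on simulated data. Coordinates and exon lengths are from the GENCODE annotation of mm10. Date-mangled gene names were left out. Numbers shared by liver replicates did not mark pairs.

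All 38 members are named; of the other lists, up to 3 called genes per list and tissue with the smallest adjusted p and a mean of at least 50 normalized reads, with exceptions marked. Members and lists were chosen with earlier results of these data known. Alternatives were pseudocounts of 0.1 and 10, a filter at a mean of 10 normalized reads, scaling to total reads, edgeR 4.0.16 and DESeq2 1.42.0 on recovered reads, a replicate block in liver, each library left out, and a threshold of 0.01. For the difference, a normal distribution and an edgeR interaction were also tried. Total scaling and left-out libraries for the other lists, and left-out libraries for the share ratios, were added after seeing the data.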

Additional observations from a re-analysis of the deposited data

Results flagged for a closer look

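The response to NASH was not the same in the organ and in its endothelial fraction for 15 of the 38 genes, by a test of the difference of the log2 fold changes, liver minus LSEC, beside 19.5% of the 15766 genes in both tables. Id1 with 1.99 and Id3 with 1.89 had the largest differences in favour of liver, and Id2, with 0.86, lost its call without 9 of the 12 libraries. Among the ligands Tgfb2 had 1.53 and Tgfb1 1.23. Among the receptors and co-receptors Acvrl1 had 1.44, Tgfbr2 1.09 and Eng 0.63. The Eng call ended without any LSEC library but chow LSEC 1. The inhibitory Smad genes had 1.14 for Smad6 and 0.97 for Smad7.

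The effect was higher in LSEC for both activin subunit genes whose products form activins A and B, Inhba with -2.20 and Inhbb with -1.30. It was also higher in LSEC for Bmpr1a with -1.24, Acvr2a with -0.80 and Smad3 with -0.79. Of these 5, only Inhba kept its call without each library in turn. The calls for Inhbb, Acvr2a and Smad3 also ended under scaling to total reads, and those for Inhbb and Smad3 in the edgeR interaction. None of these 5 was called higher in liver, and of them Inhba and Inhbb were called higher in LSEC.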

How the results depend on the processing

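For single genes, 1182 of 1349 recomputed values kept their direction and call, 46 changed sign, 98 lost a call and 28 gained one, sign changes included. At an adjusted p of 0.01, 4960 liver genes, 1 LSEC member and 126 LSEC genes were called, against 7691, 8 and 1319 at 0.05. DESeq2 called 13 members and 2503 genes in LSEC. Of the differences, a normal distribution passed 19 members and an edgeR interaction 12, against 15. Leaving out single libraries gave 20 to 22 of the liver members, 1 to 7 of the LSEC members, 124 to 1171 LSEC genes, 10 to 17 member differences and 1840 to 3171 differences over all genes. The cause of these shifts was not tested, though fewer samples enter each such fit. Scaling to total reads turned the liver log2 fold change to 0.20 for Bmp7, 0.037 for Inhba, 0.24 for Inhbe, 0.24 for Bmpr1a, 0.092 for Bmpr2, 0.075 for Tgfbr3, 0.36 for Eng, 0.40 for Smad1, 0.19 for Smad2, 0.10 for Smad3, 0.34 for Smad5 and 0.030 for Smad4. In LSEC it turned Acvr1 to 0.040, Acvr1b to 0.12, Bambi to 0.11, Smad2 to 0.12 and Id2 to 0.022, and the difference for Bmp2 to 0.020. Of these in liver, Bmpr2, Tgfbr3 and Smad4 lost their calls, and Eng and Smad1 became called higher. Genes near 0 also changed sign when single libraries were left out. In liver the ranges were -0.048 to 0.14 for Acvr1, -0.069 to 0.012 for Smad1, -0.42 to 0.18 for Inhbe, -0.0053 to 0.23 for Acvr1b, -0.15 to 0.0071 for Smad5 and -0.029 to 0.27 for Bmp5. In LSEC they were -0.17 to 0.16 for Acvr1b, -0.35 to 0.34 for Bmp7, -0.21 to 0.54 for Acvr2b, -0.37 to 0.25 for Bambi, -0.079 to 0.080 for Smad1, -0.028 to 0.080 for Smad4, -0.084 to 0.053 for Smad2 and -0.34 to 0.031 for Id2. A replicate block in liver gave 24 members, Smad3 being added, and 7447 genes, although the numbers share no stated source and same-numbered deviations correlated at -0.0267, -0.032 and 0.179. No paired analysis was possible in LSEC because the columns carry no replicate number. With 3 libraries per group and 13 to 160 reads over a group, Inhbe, Inhbc, Inhba, Fst, Bmp7 and Acvr2b in LSEC can show only large changes.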
